A study of Homo sapiens with 12 samples.

Results

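The comparison described here sets HCT116 cells carrying a DICER form called AA against HCT116 cells carrying a DICER form that lacks its double-stranded RNA-binding domain (dsRBD deletion). Small RNA was sequenced by AQ-seq, whose library steps aim at less bias in adapter ligation. The members are all human miRNA names in the count tables of these libraries, 1854 names, and the samples are 4 of the 12 in the series, 2 with AA and 2 with the dsRBD deletion. HCT116 is a human colorectal carcinoma line, and the same forms were also put into HEK293T, a human embryonic kidney line. In every group the labels call the cells a rescue, which holds for AA, the dsRBD deletion and the WT form alike. The labels do not say which residues AA changes, how the cells' own DICER was dealt with, how much of each form was made, or whether a line is 1 clone. A change in the form therefore cannot be told apart from a change in its amount. The 2 libraries of a group carry replicate numbers only, so p-values measure the spread between libraries, which may be technical.

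DICER is the ribonuclease that removes the loop of a hairpin precursor and leaves a duplex of a 5p strand and a 3p strand. One strand of the duplex is usually loaded into an Argonaute protein and becomes the mature miRNA, and bases 2 to 8 of that strand, the seed, pair with target mRNAs. The C-terminal dsRBD of DICER contacts the stem of the hairpin. A few miRNAs are known to reach Argonaute by other routes. MiR-451a is cut by AGO2 without DICER, while miR-484 and the miR-320 family are made without DROSHA but with DICER.

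The miRNA reads numbered 3157018 and 3551705 in the AA libraries, and 824987 and 1353117 in the dsRBD deletion libraries. A count of 0 allowed up to 3 reads, which was 0.988 and 0.881 CPM with AA, and 3.10 and 1.74 CPM with the deletion, so low miRNAs were measured less precisely with the deletion. CPM are counts divided by the TMM-scaled library size, a scaling that takes the typical miRNA as equal between libraries. Of the 1854 names 795 had enough reads to be tested. Over these, 29.6% were called higher and 26.9% lower with AA. Of 10 listed markers of HCT116 epithelium 7 were tested, of which 1 was higher and the other 6 were not called by edgeR. MiR-200c-3p, a repressor of ZEB1, had 57.0 and 49.6 CPM with AA, against 52.7 and 57.4 CPM with the deletion. The higher one, miR-141-3p, had 59.9 and 55.5 CPM with AA, against 3.10 and 2.90 CPM with the deletion (log2 4.26). Its deletion values rest on 3 and 5 reads, near the limit for a count of 0, so this fold change is imprecise. Of 25 listed names that mark other tissues 14 passed the filter, 6 were higher and 4 lower with AA, and their summed level was 4570 and 4437 CPM with AA, against 2855 and 2618 CPM with the deletion. The endothelial miR-126-3p had 1014 and 994 CPM with AA, against 154 and 150 CPM with the deletion, and the blood-cell miR-142-3p had 435 and 427 CPM, against 77.5 and 76.6 CPM. The neuronal miR-124-3p had 3 and 2 reads with AA, against 0 and 1 with the deletion, and the muscle miR-133b had 0 and 1 reads, against 0 and 0. Other markers of these tissues were well above that. The neuronal miR-9-5p had 972 and 968 CPM with AA, against 1440 and 1217 CPM with the deletion, and was called lower (log2 −0.45). The muscle miR-499a-5p had 75 and 93 reads with AA, against 43 and 66 with the deletion. MiR-141-3p, miR-142-3p and miR-499a-5p were named after their values were seen, and the part of these markers in the results was not tested.

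The sequences below belong to miRNAs with the same seed, shown because members of 1 seed group differed in how they responded. All are mature RNAs from RefSeq on GRCh38.p14, where 695 of the 795 tested names were found, and capitals mark the seed.

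miR-301a-3p: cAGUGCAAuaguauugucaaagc
miR-454-3p: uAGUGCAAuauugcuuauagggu
miR-301b-3p: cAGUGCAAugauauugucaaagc
miR-130b-3p: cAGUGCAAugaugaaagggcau
miR-25-3p: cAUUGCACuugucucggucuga
miR-92b-3p: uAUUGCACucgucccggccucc
miR-92a-3p: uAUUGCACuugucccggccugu
miR-32-5p: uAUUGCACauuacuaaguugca
miR-27b-3p: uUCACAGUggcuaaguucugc
miR-27a-3p: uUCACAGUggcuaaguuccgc
miR-222-3p: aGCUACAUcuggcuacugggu
miR-221-3p: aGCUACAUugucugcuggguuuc
let-7d-5p: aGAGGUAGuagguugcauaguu
let-7g-5p: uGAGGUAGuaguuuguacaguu

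Total miRNA content was higher with AA. The libraries yielded 208 ± 2.93 miRNA reads per spike-in read with AA (mean ± SD, n = 2), against 64.2 ± 0.736 with the dsRBD deletion, a 3.24-fold difference and 1.69 on the log2 scale. No AA library overlapped a deletion library, and an exact permutation test (two-sided) gave p = 0.33, the lowest possible with 2 libraries a group. Each of the 30 spike-in RNAs taken alone gave a shift above 0, between 0.14 and 2.40. Tested among themselves with edgeR, 0 of 30 spike-ins differed at an adjusted 0.05, and 1 had an unadjusted p under 0.05. The largest deviation from their median was 1.69 (log2) and was not called, so the test could miss sizeable differences. The sources used here do not give the amount of spike-in added or the step at which it was added, so the ratio measures miRNA content only if each library received the same amount.

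Relative to the typical miRNA, miRNAs spread widely in both directions. Of 795 tested names 235 were higher with AA (29.6%) and 214 lower (26.9%), so 56.5% were called by edgeR's quasi-likelihood test at an adjusted 0.05. At an unadjusted 0.05 there were 493. The higher names moved further: 64 of them were over 8-fold higher, against 3 that were over 8-fold lower. With a 2-fold limit the numbers were 191 and 115. AA and deletion libraries showed no overlap for 623 names, 78.4% of those tested. The median log2 fold change was −0.05, and scaling to the spike-ins moved all values up by a median of 1.20. On that scale 477 names were higher (60%) and 11 lower (1.38%), and scaling to library totals gave 181 higher and 276 lower. Where a value below is negative but within about that shift, the level relative to the spike-ins was equal or higher with AA. The number of lower names also depended on the AA libraries, at 104 without AA replicate 1 and 129 without AA replicate 2.

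**Figure D1:**
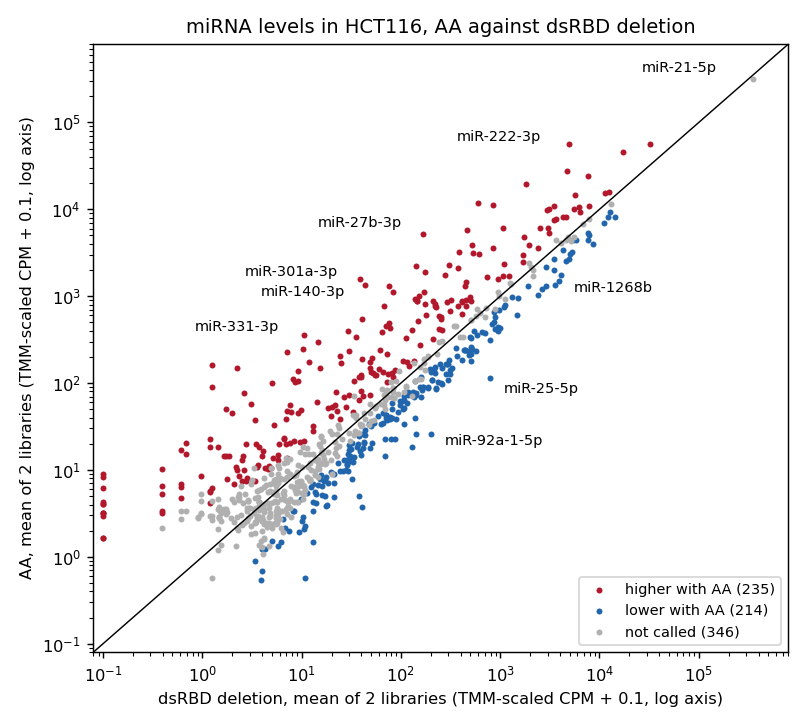
Mean TMM-scaled CPM plus 0.1 of each of the 795 tested miRNAs with the dsRBD deletion (x, log axis) and with AA (y, log axis), 2 libraries each; the line marks equal levels. The 235 higher names (red) reach far above the line, the 214 lower names (blue) lie below it, 115 of them over 2-fold and 22 over 4-fold lower, and on the spike-in scale only 11 names are lower.

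The most abundant miRNA differed little at the TMM scale. MiR-21-5p, an oncogenic miRNA that represses PDCD4, had 310925 and 315489 CPM with AA, against 382945 and 325320 CPM with the deletion. Its log2 fold change was −0.18 ± 0.11 (SE; edgeR adjusted p = 0.201), and 1.05 relative to the spike-ins. By library totals (−0.52, edgeR adjusted p = 1.70e-04) and upper-quartile factors (−0.34, adjusted p = 0.0308) it was called lower with AA. It took 29.9% and 30.3% of miRNA reads with AA, against 44.9% and 41.4% with the deletion. Other abundant miRNAs were higher with AA. MiR-222-3p, which represses the cell-cycle inhibitor p27, had 56209 and 55834 CPM with AA, against 5488 and 4312 CPM with the deletion, 11.4-fold higher (log2 3.52 ± 0.14, adjusted p = 9.98e-09). Its cluster partner and seed sister miR-221-3p had 45956 and 46572 CPM, against 18023 and 16263 CPM, 2.70-fold higher. Both are processed from introns of MIR222HG on chromosome X (MIR222 45747015 to 45747124, MIR221 45746157 to 45746266, minus strand, GRCh38). MiR-31-5p had 57163 and 55187 CPM with AA, against 32732 and 31687 CPM with the deletion (log2 0.80 ± 0.10). MiR-24-3p was 3.12-fold higher and miR-29a-3p 5.95-fold higher. MiR-16-5p (log2 0.33 ± 0.10) and miR-23a-3p (0.44 ± 0.14) passed the test with small differences. Leaving out 1 library ended these calls but not the differences. MiR-16-5p was at 0.41 (adjusted p = 0.072) without AA replicate 1 and 0.45 (0.0505) without AA replicate 2, and miR-23a-3p at 0.48 (0.0838) without AA replicate 1. MiR-16-5p was at −0.02 when scaled to library totals.

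The 12 largest increases among miRNAs of at least 100 CPM were mostly of 3p strands, with miR-574-5p and miR-140-5p the only ones named 5p. MiR-301a-3p, from the SKA2 intron on chromosome 17 (59151136 to 59151221, minus strand), had 1594 and 1546 CPM with AA, against 32.0 and 45.2 CPM with the deletion. It was 39.5-fold higher with AA (log2 5.30 ± 0.20, adjusted p = 6.40e-09), and its WT mean was 1798 CPM. MiR-27b-3p, from an intron of C9orf3 (chromosome 9, 95085445 to 95085541, plus strand), had 5385 and 4927 CPM with AA, against 162 and 168 CPM with the deletion (log2 4.96 ± 0.14). MiR-140-3p, from the WWP2 intron and known from cartilage, had 1349 and 1307 CPM with AA, against 41.3 and 46.4 CPM with the deletion (4.91 ± 0.16). For each of these strands both AA libraries were high and both deletion libraries low, with no overlap.

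MiR-331-3p had 384.2 and 330.6 CPM with AA, against 9.30 and 11.6 CPM with the deletion, 33.2-fold higher. Its WT mean was 1583 CPM, so this strand lay between the other 2 forms with AA. MiR-1180-3p, from the B9D1 intron, had 211 and 249 CPM with AA, against 7.23 and 6.96 CPM with the deletion. MiR-203a-3p, known for promoting differentiation of the epidermis, had 1298 and 1348 CPM, against 75.4 and 76.6 CPM. MiR-29b-3p, which targets collagen mRNAs, had 9768 and 13819 CPM with AA, against 539 and 643 CPM with the deletion. MiR-107, from the PANK1 intron, had 2118 and 2301 CPM, against 118 and 166 CPM. The other 4 of the 12 were miR-574-5p (log2 4.64), miR-326 (4.29), miR-454-3p (3.76) and miR-140-5p (3.75). For all 12 the adjusted p was at most 1.89e-07, and the naming rule required that the libraries did not overlap.

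The 12 largest decreases were smaller, and 2 of them were also called lower on the spike-in scale. MiR-92a-1-5p, the minor strand of a miR-17-92 hairpin (MIR92A1 in an exon of MIR17HG, chromosome 13, 91351314 to 91351391), had 25.7 and 26.1 CPM with AA, against 225 and 172 CPM with the deletion. It was 7.60-fold lower with AA (log2 −2.93 ± 0.26, adjusted p = 4.53e-06) and −1.71 relative to the spike-ins. MiR-25-5p, from the MCM7 intron, had 119.5 and 107.5 CPM with AA, against 864 and 698 CPM with the deletion, 6.87-fold lower (−2.78 ± 0.17), and −1.55 relative to the spike-ins. MiR-30d-3p, miR-6087, miR-7641, miR-200a-5p, miR-1268b, miR-1268a, miR-4517, miR-1275, miR-1277-5p and miR-4485-5p lay between −1.51 and −1.32 at the TMM scale, and between −0.30 and −0.12 relative to the spike-ins, where none was called. MiR-1268a and miR-1268b are near-identical and may share reads.

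The 11 names that were lower with AA also on the spike-in scale included minor strands of hairpins whose other strand was higher. Besides miR-25-5p and miR-92a-1-5p, miR-365a-5p had 18.1 and 18.8 CPM with AA, against 135 and 121 CPM with the deletion, whereas miR-365a-3p had 949 and 794 CPM, against 104 and 187 CPM. MiR-197-5p had 27.7 and 23.5 CPM with AA, against 170 and 114 CPM with the deletion, and its other strand miR-197-3p was also lower at the TMM scale (log2 −1.16). The others were miR-1249-5p, miR-1291, miR-190a-3p, miR-219a-1-3p, miR-3653-3p, miR-4497 and miR-6516-3p, all under 100 CPM on average. These 9, miR-365a-3p and miR-197-3p were named after their values were seen.

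**Figure D2:**
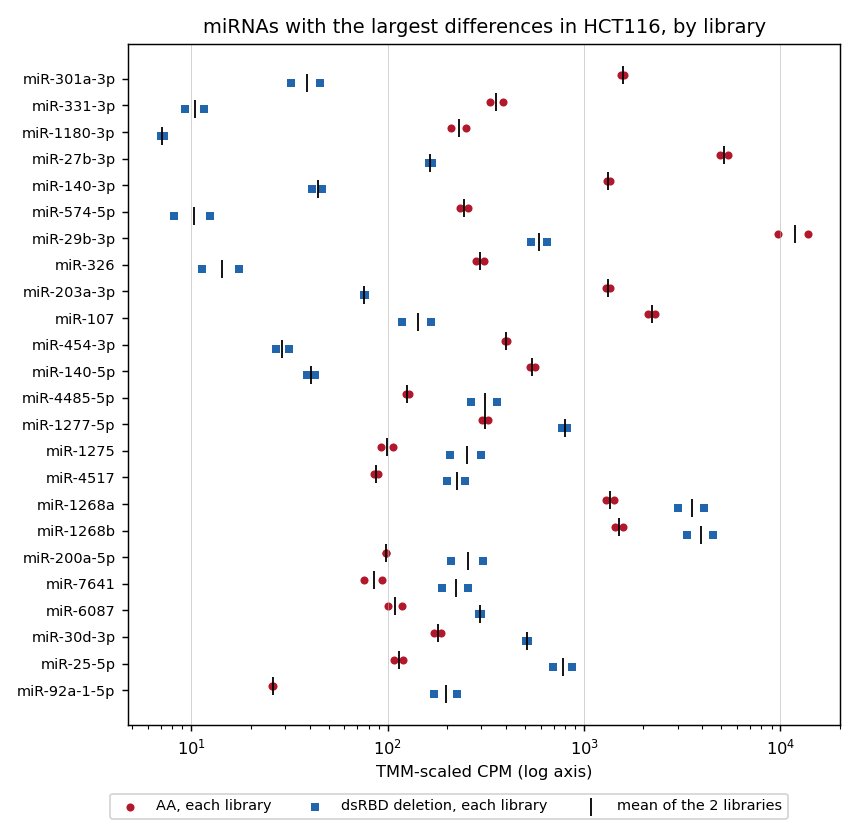
TMM-scaled CPM (x, log axis) of the 24 named miRNAs with the largest differences, in each AA library (red circles) and each dsRBD deletion library (blue squares), with bars at the means. The upper 12 rows, topped by miR-301a-3p, are higher with AA. The lower 12 are lower with AA, of which miR-25-5p and miR-92a-1-5p were also called lower relative to the spike-ins.

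More 3p names than 5p names were higher with AA. Of 311 tested 3p names 138 were higher (44.4%) and 54 lower (17.4%), and their median was 0.79 (log2). Of 339 tested 5p names 65 were higher (19.2%) and 107 lower (31.6%), with a median of −0.31. The 145 names without an arm in their name had 32 higher (22.1%) and 53 lower (36.6%), with a median of −0.47. Over all 795 names 29.6% were higher and 26.9% lower. On the spike-in scale 240 3p names were higher and 4 lower, and 178 5p names were higher and 5 lower. The medians over all 795 names were −0.05 at the TMM scale and 1.15 relative to the spike-ins, where the 3p and 5p medians were 1.96 and 0.89. The sign of the 5p median thus depended on the scale, while the 3p median was above 0 on all 5 scales tried. Without AA replicates 1 and 2 in turn, 54 and 63 5p names were lower. The lower 3p names numbered 23 and 28 without those libraries, and 35 without deletion replicate 2.

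**Figure D3:**
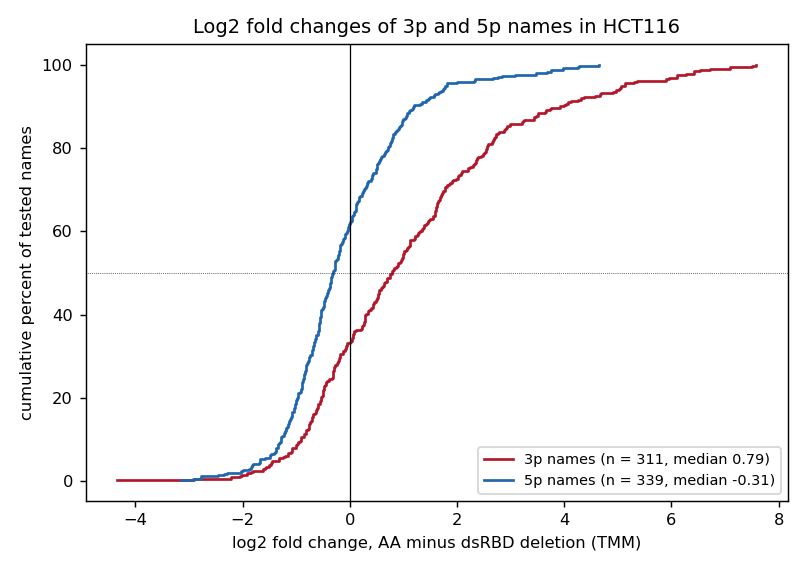
Cumulative percent of tested names (y) by log2 fold change, AA minus dsRBD deletion at the TMM scale (x), for 311 names of 3p strands (red) and 339 of 5p strands (blue). The 3p curve lies to the right, with a median of 0.79 against −0.31; on the spike-in scale both medians are above 0.

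The comparison of strands within a hairpin does not depend on how libraries are scaled. It was tested for 229 hairpins as the interaction of strand and form in edgeR, with each library as its own block. In 99 hairpins (43.2%) the 3p share was higher with AA, and in 32 (14%) it was lower, so 57.2% were called. In the 99 hairpins the 3p name was called higher at the TMM scale in 78, the 5p name lower in 43, and both in 29. Unlike the interaction, these calls of single names depend on the scaling. On the spike-in scale only 5 of all 339 tested 5p names were lower. Leaving out AA replicate 1 or AA replicate 2 gave 20 hairpins with a lower 3p share. The largest interaction by the naming rule was that of miR-25, a member of the miR-106b-25 cluster. Its hairpin is printed with both mature strands in capitals (MIR25, chr7:100093560-100093643, minus strand, GRCh38.p14).

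MIR25: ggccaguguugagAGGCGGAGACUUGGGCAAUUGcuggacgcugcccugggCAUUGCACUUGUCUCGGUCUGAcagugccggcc

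The 3p strand took 98.0% and 98.2% of the miR-25 reads with AA, against 34.2% and 40.5% with the deletion. The interaction was 6.42 ± 0.20 (log2, adjusted p = 1.88e-17), and the WT libraries had 99.0% and 99.2%. Reads of miR-25-3p numbered 17405 and 19921 with AA, against 435 and 819 with the deletion. Those of miR-25-5p numbered 363 and 366 with AA, against 836 and 1203 with the deletion, although the deletion libraries held far fewer reads in all. In this hairpin both strands moved, and in opposite directions.

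In the miR-331 and miR-27b hairpins the 3p strand passed the test and the 5p strand did not. The 3p share of miR-331 was 64.5% and 59.4% with AA, against 3.86% and 4.73% with the deletion (5.15 ± 0.29), and the log2 fold change of miR-331-5p was −0.09, not called. The 3p share of miR-27b was 98.3% and 98.1% with AA, against 56.7% and 62.2% with the deletion (5.23 ± 0.22), with miR-27b-5p at −0.27, not called. For miR-203a the shares were 87.0% and 88.7% with AA, against 21.9% and 18.3% with the deletion (4.88 ± 0.23), with log2 fold changes of 4.12 for the 3p strand and −0.75 for the 5p strand. The miR-365a hairpin had 98.1% and 97.7% with AA, against 43.5% and 60.8% with the deletion (5.36 ± 0.31), and its strands changed by 2.55 (3p) and −2.78 (5p). MiR-365a-3p had 101 and 322 reads with the deletion and miR-365b-3p 98 and 327, so they may share reads. The shares may then not be those of the miR-365a hairpin alone. Set against miR-365b-5p, the 3p share with the deletion was 90.7% and 94.8%. MiR-1277 stayed a mostly 5p hairpin, with 19.6% and 19.4% of 3p reads with AA, against 0.133% and 0.496% with the deletion (6.03 ± 0.38), and its strands changed by 4.66 (3p) and −1.34 (5p). Its 3p strand had only 1 and 7 reads with the deletion, against 225 and 264 with AA, so these 3p values are imprecise. At the TMM scale the 5p strands of miR-203a, miR-365a and miR-1277 passed the test as lower with AA. Of these only miR-365a-5p was also called lower on the spike-in scale.

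In 29 called hairpins the strand with more reads was 3p with AA and 5p with the dsRBD deletion, by the mean of the 2 shares, and in 0 was it the reverse. MiR-29a had 86.8% and 88.1% of 3p reads with AA, against 34.8% and 35.4% with the deletion. MiR-454 had 60.8% and 59.9%, against 4.65% and 6.21%. The hairpin of miR-126, an endothelial miRNA, had 56.4% and 57.5%, against 40.2% and 40.7%, and both of its strands were higher with AA (3p log2 2.72, 5p 1.76). MiR-615 had 7 reads of both strands with the deletion, split as 0% and 80% 3p, and miR-5001 had 26.3% and 64.3%, so for these 2 the dominant strand with the deletion is uncertain. It is uncertain too for miR-5582, at 50% and 12.5% with the deletion. MiR-1285 and miR-4758 were each at 50% in 1 AA library. MiR-6511a and miR-6511b had the same 5p reads and may share reads. With at least 50 reads per strand, 18 hairpins remained in the count. These hairpins, other than miR-25, miR-331 and miR-203a, were named after their values were seen.

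**Figure D4:**
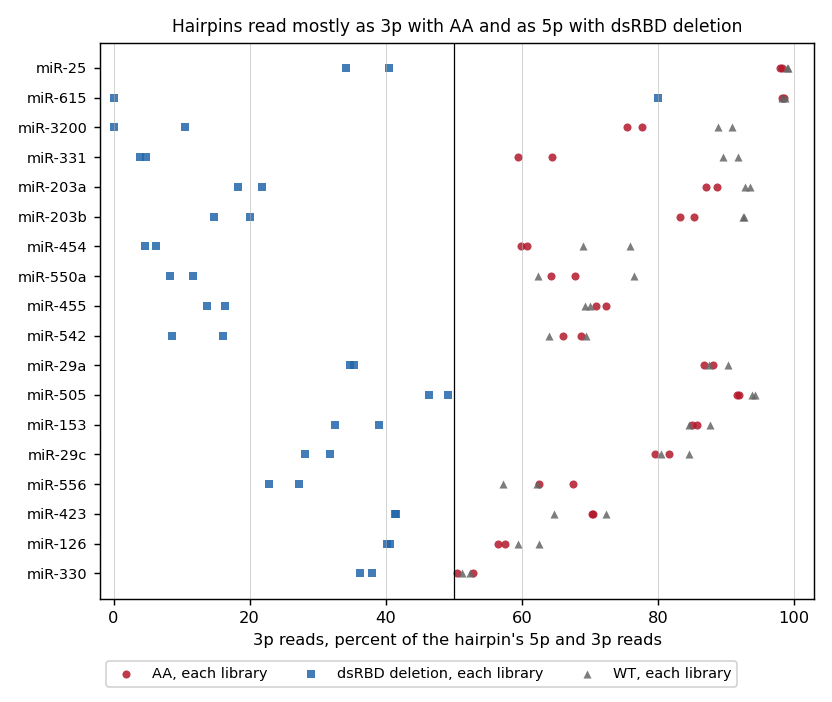
Percent of a hairpin's reads from the 3p strand (x) in each AA library (red circles), dsRBD deletion library (blue squares) and WT library (grey triangles), for the 18 of 29 hairpins with at least 50 CPM. All AA libraries lie above 50%, and the deletion libraries lie below it except 1 library of miR-615, which had 5 reads.

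The shift toward 5p with AA was smaller. By the naming rule it was largest in miR-345, with 0.684% and 0.658% of 3p reads with AA, against 4.76% and 1.40% with the deletion (−2.04 ± 0.71), and it was not called without deletion replicate 1 (−1.10, adjusted p = 0.436). MiR-345-5p itself had 1099 and 1109 CPM with AA, against 82.6 and 81.8 CPM with the deletion. The 3p share of miR-185 was 12.1% and 12.8% with AA, against 33.3% and 31.1% with the deletion (−1.74 ± 0.24), and both strands were higher with AA (5p log2 2.76, 3p 1.02). MiR-30b, miR-584, miR-149 and miR-224 had interactions between −1.81 and −1.40, with 3p shares of 0.519% to 2.19% with AA, against 1.78% to 6.04% with the deletion. MiR-324, whose precursor is known to be cut by DICER at alternative positions, had 24.4% and 24.0% of 3p reads with AA, against 17.1% and 21.2% with the deletion (0.43 ± 0.19, adjusted p = 0.0624). It was called without deletion replicate 2 (0.63, adjusted p = 0.00723).

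Members of a seed family did not always move as one at the TMM scale. Among 72 seeds shared by at least 2 tested names, 25 had all members called in 1 direction and 10 had members called in both. Over all tested names 29.6% were higher and 26.9% lower, and these counts were not tested against that. The 25 include near-identical names that may share reads and would then move together whatever the forms did. Among them are miR-1268a with miR-1268b (log2 values 0.00028 apart) and miR-365a-3p with miR-365b-3p (0.00035 apart). No member of the 10 mixed seeds was among the 11 names called lower on the spike-in scale. The seed AGUGCAA, shown above, spanned miR-301a-3p at 5.30, miR-454-3p at 3.76, miR-301b-3p at 1.62 and miR-130b-3p at −0.49. MiR-130b-3p had 795 and 804 CPM with AA, against 1132 and 1120 CPM with the deletion (adjusted p = 0.00608), and its difference was 0.72 relative to the spike-ins. It was not called without AA replicate 1 (edgeR adjusted p = 0.163) or 2 (adjusted p = 0.116). MiR-130a-3p, of the same family, had 3165 and 3049 CPM with AA, against 460 and 604 CPM with the deletion. The hairpins of the highest and the lowest of these are printed with the 3p strand in capitals (MIR301A, chr17:59151136-59151221, minus strand; MIR130B, chr22:21653304-21653385, plus strand, GRCh38.p14).

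MIR301A: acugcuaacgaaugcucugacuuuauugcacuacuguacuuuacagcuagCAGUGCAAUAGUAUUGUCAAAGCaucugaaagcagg
MIR130B: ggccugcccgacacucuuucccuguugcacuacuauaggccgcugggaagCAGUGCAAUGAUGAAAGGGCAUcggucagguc

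The seed AUUGCAC had 4 higher members of different size. MiR-25-3p was 12.5-fold higher with AA, with 5731 and 5849 CPM, against 449 and 475 CPM with the deletion. MiR-92b-3p was 3.75-fold, miR-32-5p 1.64-fold and miR-92a-3p 1.46-fold higher. MiR-92a-3p, the abundant strand of the miR-17-92 cluster, had 8984 and 9553 CPM with AA, against 7016 and 5661 CPM with the deletion. It was not called by library totals (log2 0.20, adjusted p = 0.321) or upper-quartile factors (0.39, adjusted p = 0.0962). Of the 2 strands with the seed UCACAGU, miR-27a-3p had 20589 and 18737 CPM with AA, against 1780 and 1864 CPM with the deletion, 10.8-fold higher, beside 31.2-fold for miR-27b-3p. In the same clusters miR-23b-3p was 5.80-fold higher, and miR-23a-3p 1.36-fold. The 3 strands with the seed AGCACCA, miR-29a-3p, miR-29b-3p and miR-29c-3p, were 5.95-, 19.9- and 4.24-fold higher. MiR-103a-3p and miR-107, which share a seed and lie in PANK introns, were 13.3- and 15.4-fold higher. Seed sisters outside the naming rule (miR-301b-3p, miR-25-3p, miR-92b-3p, miR-32-5p, miR-23b-3p, miR-29c-3p, miR-103a-3p, let-7d-5p) were named after their values were seen.

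The let-7 family, which represses RAS and LIN28 mRNAs, had 5 higher and 6 lower of 19 tested names, with a median of 0.02 at the TMM scale, −0.33 by library totals and 1.24 relative to the spike-ins. Let-7d-5p had 3010 and 3112 CPM with AA, against 640 and 573 CPM with the deletion, 5.05-fold higher. Let-7i-5p was 1.72-fold higher. Let-7g-5p had 5248 and 5322 CPM with AA, against 7990 and 7462 CPM with the deletion (log2 −0.55 ± 0.12), and was at 0.67 relative to the spike-ins. Its adjusted p was 0.0938 and 0.056 without AA replicates 1 and 2. Let-7a-5p, at −0.18, was not called. The miR-10, miR-99, miR-100 and miR-125 family had 3 higher and 7 lower of 13, with a median of −0.55 at the TMM scale and 0.64 relative to the spike-ins. Within it miR-10a-5p had 8518 and 7903 CPM with AA, against 15749 and 13133 CPM with the deletion.

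Families with higher strands included miR-148 and miR-152, with 4 higher and 1 lower of 5 and a median of 1.48 (miR-148b-3p 6.31-fold). MiR-26 and miR-101, which repress the methyltransferase EZH2, had 4 higher and 3 lower of 7 (miR-26a-5p 3.17-fold, miR-101-3p 4.22-fold). The miR-200 family, which represses ZEB1 and ZEB2, had 4 higher and 2 lower of 8. In it miR-200a-3p had 2259 and 2353 CPM with AA, against 326.4 and 280.2 CPM with the deletion, and miR-200a-5p was 2.62-fold lower with AA at the TMM scale. The miR-29 family had 3 higher and 4 lower of 7, and the lower names included miR-29a-5p (4161 and 3818 CPM with AA, against 8553 and 8689 CPM with the deletion, 0.10 relative to the spike-ins). Names of miR-17-92 and its paralogous clusters were higher in 10 and lower in 6 of 23, with a median of 0.12 at the TMM scale and −0.24 by library totals. The miR-30 family had 5 and 4 of 11, the miR-15 and miR-16 family 4 and 3 of 14, the miR-181 family 3 and 2 of 9, and the miR-183 cluster 1 and 1 of 6. Of 10 p53-responsive names 2 were higher and 0 lower, among them miR-34a-5p (log2 1.10). Against 29.6% higher and 26.9% lower over all names, these counts describe the lists only.

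MiRNAs made by unusual routes were measured as well. All 5 tested DROSHA-independent names were higher with AA, with a median of 1.29, where 29.6% of all tested names were higher and 26.9% lower. MiR-484, from an untranslated exon of NDE1 on chromosome 16 (15643294 to 15643372), had 73.4 and 71.9 CPM with AA, against 33.1 and 27.3 CPM with the deletion (log2 1.29 ± 0.20, adjusted p = 2.57e-04), and both groups lay far under the WT mean of 1218 CPM. MiR-320a had 7689 and 8731 CPM with AA, against 4360 and 4224 CPM with the deletion (0.94 ± 0.13). The miR-320 members may share reads. MiR-451a, which needs no DICER, had 97.1 and 80.5 CPM with AA, against 155 and 217 CPM with the deletion (−1.08 ± 0.19), and its difference relative to the spike-ins was 0.12 (adjusted p = 0.725). Both miR-324 strands were higher with AA, miR-324-5p by 0.70 ± 0.12 and miR-324-3p by 1.12 ± 0.16. Of 15 tested mirtron names, which are spliced out as short introns, 2 were higher (13.3%) and 3 lower (20%). MiR-877-5p and miR-877-3p, at −0.81 and −0.71, were not called when either AA library or deletion replicate 1 was left out.

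By the first base of the mature strand, 3p names that begin with U had the highest median. Among the 98 tested 3p names that begin with U, 51 were higher (52.0%) and 10 lower (10.2%), and the median was 1.59 (log2). By calls U did not stand out from G, where 54.5% were higher and 4.55% lower. For A these shares were 44.7% and 21.1%, for C 33.7% and 20.9%, and over all 311 tested 3p names 44.4% and 17.4%. Those that begin with C (86 names) had a median of 0.29, with A (76 names) 0.71 and with G (22 names) 0.99. The median level over the 4 libraries was 36.4 CPM for U, 31.3 for C, 17.7 for A and 29.5 for G. The medians of 5p names by first base lay between −0.57 for A (81 names) and 0.11 for C (45 names). These are descriptions over names, which share libraries and are not replicates.

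HEK293T libraries, which share no sample with HCT116, were compared in the same way. Of 626 tested names 226 were higher with AA (36.1%) and 231 lower (36.9%), 73% in all. Over the 539 names tested in both lines, the log2 fold changes correlated at Pearson r = 0.61 and Spearman rho = 0.61, as a description across names. Of 185 names that were higher in HCT116 and tested in HEK293T, 130 were also higher there and 19 lower. Of 172 that were lower in HCT116, 109 were also lower and 23 higher. MiRNA reads per spike-in read in HEK293T were 51.6 ± 10.3 with AA, against 28.2 ± 1.33 with the deletion (n = 2 each, exact permutation p = 0.33). In that line 20 of 30 spike-ins differed among themselves between AA and the deletion, against 0 of 30 in HCT116. The largest deviation of a spike-in from the spike-in median was 2.13 (log2) in HEK293T and 1.69 in HCT116. The 0 calls in HCT116 therefore do not show that its spike-ins were even. In either line a difference in library preparation cannot be told apart from one of the forms.

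The difference between the lines was tested for 844 names over all 12 libraries, and 36.8% were called, 204 higher and 107 lower in HCT116 minus HEK293T. Its median over all names was 0.43, and between 0.04 and 0.75 under other scalings, so values are read against that median. The excess of higher names depended on the scaling, with 145 higher and 141 lower by DESeq2 size factors. Library totals gave 143 and 136, and the spike-in scale 223 and 76. MiR-27a-3p was 10.8-fold higher with AA in HCT116, and in HEK293T averaged 1152 CPM with AA, against 1189 CPM with the deletion (line difference 3.67 ± 0.23, adjusted p = 4.38e-11). MiR-27b-3p had a line difference of 3.98 ± 0.25. In arm use the miR-27b hairpin moved toward 3p in HCT116 (5.23) and toward 5p in HEK293T (−2.52), a line difference of 7.75 ± 0.47 (adjusted p = 3.30e-15), in a test added after the HCT116 values were seen. MiR-484 was also higher with AA in HCT116 and lower in HEK293T, where it averaged 29.4 CPM with AA, against 98.3 CPM with the deletion (line difference 3.19 ± 0.33). MiR-21-5p differed the other way from miR-27b-3p. In HEK293T it averaged 5386 CPM with AA, against 623 CPM with the deletion (log2 3.11), and its line difference was −3.10 ± 0.25. MiR-182-5p was at 0.30 in HCT116, not called, and at 4.03 in HEK293T (line difference −3.54 ± 0.28).

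For other miRNAs no line difference was called in the test, which is against 0. The line differences of miRNA levels given here were below 0, so they lay further from the median of 0.43 than from 0. MiR-140-3p was at 4.91 in HCT116 and 5.76 in HEK293T, with a line difference of −0.65 ± 0.30 (adjusted p = 0.0873). MiR-1180-3p was at 5.02 and 5.79 (−0.58 ± 0.68, edgeR adjusted p = 0.563), and miR-29a-3p at 2.57 and 2.89 (−0.12 ± 0.28, adjusted p = 0.803). The strand shift of miR-25 was 6.42 in HCT116 and 6.16 in HEK293T, a line difference of 0.26 ± 0.28 (adjusted p = 0.525). A p that misses the threshold does not show that the lines are equal.

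**Figure D5:**
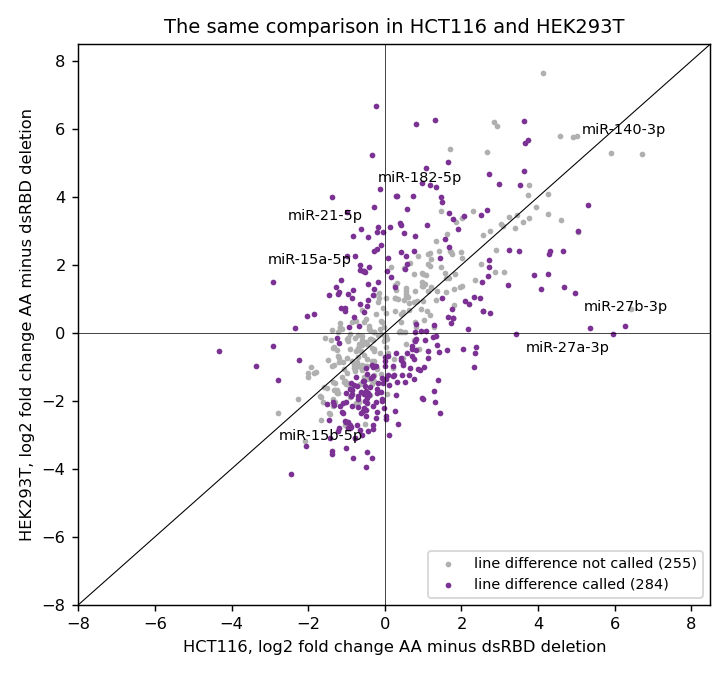
Log2 fold change, AA minus dsRBD deletion, of the 539 miRNAs tested in both lines, in HCT116 (x) and HEK293T (y); the diagonal marks equal values, and purple marks 284 names whose line difference was called. MiR-140-3p lies high in both lines, miR-27a-3p and miR-27b-3p are higher mainly in HCT116, and miR-21-5p and miR-182-5p mainly in HEK293T.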

How the data were processed

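AQ-seq libraries, made per the labels' protocols from 100 µg of total RNA, were analysed for HCT116 and HEK293T cells with DICER AA, dsRBD deletion or WT, 2 libraries each. The deposited values are raw counts per miRNA name and for 30 spike-in RNAs. Per the submitters' processing notes cutadapt, BWA and bedtools and the builds hg38 and mm10 were used. Their versions and roles, the miRNA annotation and how reads matching several names were counted were not stated, so counts of near-identical names may share reads.

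After filterByExpr (minimum count 10) and TMM scaling, names were tested with edgeR 4.0.16 in R 4.3.3 (quasi-likelihood F test, two-sided) on all 6 libraries of a line. WT libraries enter the filter, the scaling and the shared spread (795 names tested, 677 without them), leaving 3 residual degrees of freedom. Adjusted p-values are Benjamini-Hochberg over all tested names, hairpins or line differences, called at 0.05, and the SE is the fold change divided by the square root of F. Log2 fold changes are AA minus dsRBD deletion. Arm use was tested where both arms had 10 or more reads in 2 or more libraries. Spike-ins were left out of library sizes, and a spike-in scale set library sizes by their total and TMM factors. The limits given for a count of 0 cover counting error only. Alternatives used DESeq2 1.42.0, other scalings, filters, thinning and omission of libraries. The scripts were tested on simulated data. Sequences are from RefSeq GRCh38.p14 and host genes from GENCODE 29.

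Named miRNAs were the 12 largest differences each way among called names without overlap and of at least 100 CPM. Added, called or not, were the 8 most abundant names, up to 3 most abundant tested members of each list, and miR-451a, miR-484, miR-331-3p and both arms of miR-324. For arm use they were the 6 largest each way and miR-324. The members, lists and rules were chosen with earlier results of these data known.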

Additional observations from a re-analysis of the deposited data

Results flagged for a closer look

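The comparison of AA with the dsRBD deletion differed between HCT116 and HEK293T for 55 of the 84 named miRNAs, by the edgeR test of the difference itself over all 12 libraries. Over all names it was 311 of 844 (36.8%), and many of the named miRNAs were chosen for large differences in HCT116. Of the 55 calls 9 were lost with DESeq2 size factors, 9 with library totals and 10 with the spike-in scale. Without a filter 7 were lost, and with a mean of at least 10 CPM 3. Values are log2 differences, HCT116 minus HEK293T, and the median over all 844 tested names was 0.43. They were above 0 for 34 miRNAs, in order miR-27b-3p 3.98, miR-27a-3p 3.67, miR-484 3.19, miR-574-5p 2.43, miR-1268a 2.39, miR-15b-5p 2.38, miR-1268b 2.28, miR-331-3p 2.24, miR-326 2.18, miR-29b-3p 2.09, miR-324-3p 2.05, let-7g-5p 1.91, miR-23a-3p 1.88, miR-6087 1.84, miR-301a-3p 1.76, miR-19b-3p 1.66, miR-877-3p 1.66. The list goes on with miR-320c 1.59, miR-324-5p 1.58, miR-96-5p 1.56, miR-451a 1.48, miR-130b-3p 1.40, miR-24-3p 1.37, miR-320b 1.25, miR-34a-3p 1.23, miR-192-5p 1.15, miR-125a-5p 1.07, miR-320a 1.07, miR-4485-5p 1.00, let-7i-5p 0.94, miR-1275 0.89, miR-30d-3p 0.78, miR-126-3p 0.76, miR-31-5p 0.73.

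They were below 0 for 21 miRNAs, miR-221-3p −0.59, miR-222-3p −0.65, miR-148a-3p −0.66, miR-30d-5p −0.69, miR-148b-3p −0.76, miR-194-5p −0.89, miR-10a-5p −1.09, miR-101-3p −1.17, miR-25-5p −1.20, miR-9-5p −1.24, miR-26a-5p −1.66, miR-34a-5p −1.89, miR-181b-5p −1.95, miR-15a-5p −2.15, miR-92a-1-5p −2.35, miR-26b-5p −2.35, miR-181a-5p −2.48, miR-148a-5p −2.51, miR-181a-3p −2.84, miR-21-5p −3.10, miR-182-5p −3.54. Strand use, tested likewise after the HCT116 values were seen, differed between the lines for 74 of 244 hairpins (30.3%), among them 5 of the 12 named ones, miR-27b 7.75, miR-331 4.70, miR-1277 2.72, miR-365a 2.32, miR-185 −1.54. MiR-203a, miR-149 and miR-224 had no arm test within HEK293T, and miR-203a no SE for the line difference. For miR-27a-3p, miR-24-3p and miR-23a-3p, and for miR-27b-3p, members of the 2 miR-23/27/24 clusters, the difference was above the median. For miR-26a-5p, miR-26b-5p and miR-101-3p it was below 0. In HEK293T the spike-ins differed among themselves between AA and the deletion in 20 of 30 cases, and their part in the line differences was not tested.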

How the results depend on the processing

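The scaling decides how many miRNAs are called lower. Scaled to the spike-ins, 477 names were higher and 11 lower with AA, of 3p names 240 and 4, of 5p names 178 and 5, and in HEK293T 122 names were lower. Without a filter 141 names and 28 3p names were lower, and with 50 reads per strand 18 hairpins had a 3p majority with AA and a 5p majority with the deletion. Relative to the spike-ins these miRNAs changed sign to a log2 difference above 0: miR-21-5p 1.05, let-7a-5p 1.05, let-7g-5p 0.67, miR-10a-5p 0.41, miR-100-5p 0.64, miR-125a-5p 0.64, miR-15b-5p 1.18, miR-15a-5p 0.80, miR-19b-3p 0.75, miR-29a-5p 0.10, miR-30d-5p 0.54, miR-148a-5p 0.077, miR-181a-5p 1.01, miR-181a-3p 0.44, miR-183-5p 0.86, miR-130b-3p 0.72, miR-451a 0.12, miR-877-5p 0.42, miR-877-3p 0.51, miR-9-5p 0.77, miR-192-5p 1.21 and miR-200c-3p 1.15. By library totals miR-16-5p was at −0.017. These changes follow from the median shift that each scaling makes. Leaving out 1 library at a time gave 205 to 259 higher and 104 to 199 lower names, 112 to 147 higher and 23 to 48 lower 3p names, and 56 to 77 higher and 54 to 102 lower 5p names. It gave 80 to 93 hairpins toward 3p and 20 to 36 toward 5p, 26 to 32 with a 3p majority only with AA and 0 to 2 with a 5p majority only with AA, a log2 spike-in ratio of 1.68 to 1.71, and in HEK293T 197 to 233 higher and 169 to 197 lower names. Where that left 1 library in a group, it was assumed to vary like the others. DESeq2's Wald test called 221 higher and 155 lower, and thinning to the shallowest library 183 and 162. The numbers of the libraries did not pair them, since AA and deletion libraries of 1 number deviated with a correlation of −0.05. With the replicate block 225 names were higher and 196 lower, and no named miRNA changed its call. With the deletion libraries at 824987 and 1353117 reads, levels under 3.10 CPM were not distinguishable from 0 in the shallower one.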
